A study of Mus musculus with 16 samples.

Results

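The regions described here are 13021 autosomal windows of 1 kb in which a small number of CpGs was measured and nearly all of them were methylated in control mouse embryonic stem cells (mESCs). They were chosen by measured values, since each had 5 to 15 covered CpGs and a mean level over its CpGs of 80% or more in both mESC shCtrl libraries. They make up 44.6% of the 29206 windows with 5 to 15 covered CpGs in these libraries, and 6.47% of the 201320 autosomal windows with a CpG in any library. All windows come from reduced representation bisulfite sequencing (RRBS), in which a restriction digest enriches CpG-containing fragments and bisulfite converts unmethylated cytosines, of E14 mESCs (129/Ola) grown in serum with LIF and of embryoid bodies (EBs) made from them in the same medium lacking LIF. The 8 groups had 2 libraries each. YP-mESCs and OP-mESCs are the same line at a young and an old passage. OP-S33Y #1 and OP-S33Y #2 are 2 clones that overexpress a stabilized β-catenin carrying the S33Y mutation, grown to an old passage, and each is 1 clone. The mESC shCtrl and mESC shβcat #1 groups carry a control hairpin or a hairpin against β-catenin, and EB shCtrl and EB shβcat #1 are EBs, aggregates of differentiating cells, made from such cells. The study calls the libraries of a group biological replicates, without saying how their cultures were kept apart.

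In mammals, methyl groups sit mostly on the cytosine of CpG dinucleotides. After replication DNMT1, brought to the new strand by UHRF1, copies the mark, while DNMT3A and DNMT3B set it de novo and TET enzymes start its removal. Most CpGs outside CpG islands are methylated, whereas islands at active promoters are usually free of methylation. mESCs in serum with LIF keep a high genome-wide level, and windows outside islands are where a general loss of methylation can be read. Here a level is the percent of reads called methylated, averaged over the CpGs of a window, and a difference is given in percentage points.

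The sequences of 6 windows are shown because they carry the patterns described below. Outside the gene lists, a window called near a gene overlaps no gene, and the nearest protein-coding gene is named. That gene can be far away, from 1391 bases for Lyz2 to 32885 for Dclk3, 42337 for Sox14, 166605 for Pkia and 453565 for Gm5263. A link between such a window and its named gene was not tested. The windows near Dclk3 (chr9:111425672-111425778) and Lyz2 (chr10:116712444-116712645) fell in OP-mESCs, and that in an intron of Ano2 (chr6:125974554-125974613) differed between OP-mESCs and the clones. The window near Usp46 (chr5:74383442-74383524) was low in YP-mESCs alone, that near BC026585 (chr1:159380200-159380341) fell in EBs, and that near Olfr1463 (chr19:13344252-13344353) stayed methylated in every library. They are the plus strand of mm9, 5′ to 3′, from 10 bases before the first to 10 bases after the last CpG shown, and capitals mark the CpGs covered in both mESC shCtrl libraries.
Dclk3 window: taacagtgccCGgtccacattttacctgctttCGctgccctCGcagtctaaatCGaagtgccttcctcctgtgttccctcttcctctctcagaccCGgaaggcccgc
Lyz2 window: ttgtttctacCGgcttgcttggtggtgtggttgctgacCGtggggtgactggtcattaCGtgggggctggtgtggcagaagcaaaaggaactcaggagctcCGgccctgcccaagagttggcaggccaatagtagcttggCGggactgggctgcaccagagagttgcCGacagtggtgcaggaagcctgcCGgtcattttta
Ano2 window: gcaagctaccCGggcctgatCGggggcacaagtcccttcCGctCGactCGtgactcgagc
Usp46 window: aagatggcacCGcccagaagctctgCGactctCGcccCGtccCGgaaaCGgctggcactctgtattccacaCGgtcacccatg
BC026585 window: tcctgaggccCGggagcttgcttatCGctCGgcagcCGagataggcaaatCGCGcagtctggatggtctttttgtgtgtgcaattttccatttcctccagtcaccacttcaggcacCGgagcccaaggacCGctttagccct
Olfr1463 window: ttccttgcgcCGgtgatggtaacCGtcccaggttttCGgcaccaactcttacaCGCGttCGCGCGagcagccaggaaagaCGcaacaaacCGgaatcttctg

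Sparse refers to the CpGs measured, not to the whole window. The members held a median of 19 CpGs per kb in the reference (quartiles 16 and 24), against 26 in the other 16185 windows with 5 to 15 covered CpGs. Members were far from promoters, with a median distance to the nearest transcription start of 19133 bases against 2964 bases in those other windows. Of the members 8.12% lay within 1 kb of a start, compared with 37.1%. Each window was given the 1 annotation class that held the most of its covered CpGs. By this class 5079 members were intergenic (39.0%), 4131 intronic (31.7%), 3447 coding exon (26.5%) and 364 UTR (2.80%). UTRs made up 10.4% of the other windows. Members were spread singly, and 1001 (7.69%) had a neighbouring member window. These features are given as a description of the chosen windows.

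At the threshold, the members closest to it were a window near Gm5263 (80% and 86.7% in the mESC shCtrl libraries) and a window near Ptpn1 (86.7% and 80%). The closest windows outside it were in Cdh13, with 79.996% and 82.7%, and at Gm3985, with 79.99% and 84.5%.

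Coverage differed between libraries and decided which members could be read. Between 3275 (OP-mESC replicate 2) and 12846 (EB shβcat #1 replicate 1) of the members had 5 or more CpGs in the 14 libraries that the rule did not use, and 2678 had them in all 16. Of the 13021 members, 2486 were readable in fewer than 7 of the 14 libraries and 8 in none. No CpG of chromosome 13 was covered in YP-mESC replicate 2, which removed 555 members from the comparisons with YP-mESCs. The libraries held 18919219 to 40519010 reads on CpGs, and a readable member had a median of 145 to 258 reads in a library. Pooled DNA of many cells was measured, so fewer methylated cells and less methylation per cell cannot be told apart.

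In all 14 other libraries the typical member was largely methylated, and the groups differed in its level. The median level of readable members was 86.1% in both YP-mESC libraries and 80.6% and 80.8% in the OP-mESC libraries, the lowest of all groups. OP-S33Y #1 had 89.2% and 89.3%, and OP-S33Y #2 had 86.6% and 86.0%. In mESC shβcat #1 it was 93.1% and 93.0%, in EB shCtrl 91.2% and 91.6%, and in EB shβcat #1 86.7% and 87.3%. The SD between the replicate medians was at most 0.448 points, and the groups did not overlap except OP-S33Y #2 with YP-mESCs and EB shCtrl with the mESC shCtrl libraries. The range was alike over the 2678 members readable in all libraries, where group means ran from 80.6% ± 0.157 (SD, n = 2) in OP-mESCs to 92.9% ± 0.139 (SD, n = 2) in mESC shβcat #1. OP-S33Y #2 with 85.9% ± 0.356 (SD, n = 2) and YP-mESCs with 86.0% ± 0.0147 (SD, n = 2) did not differ beyond that spread.

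**Figure D1:**
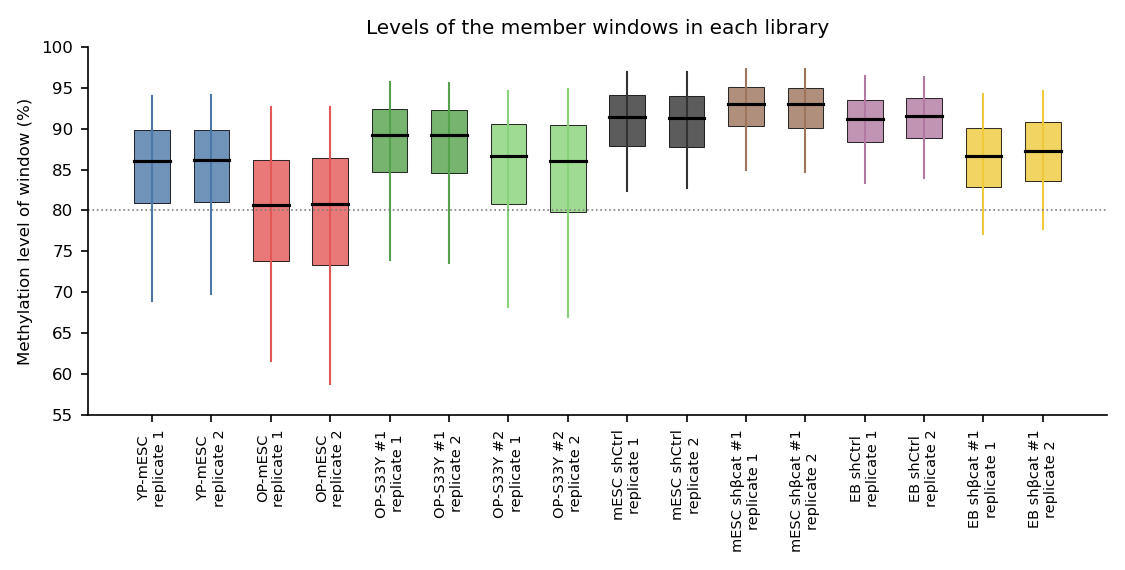
Methylation level (percent, y axis from 55) of the members with 5 or more CpGs in each of the 16 libraries (x axis). Boxes span the quartiles with the median as a line, thin lines run from the 5th to the 95th percentile, and the dotted line marks 80%, the level that chose the members in the mESC shCtrl libraries. The OP-mESC medians (80.6% and 80.8%) are the lowest.

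The share of readable members at 80% or more was 52.9% and 53.6% in OP-mESCs and 77.7% and 78.8% in YP-mESCs. It was 87.9% and 90.1% in EB shβcat #1, and 98.5% in both EB shCtrl libraries. Low levels were rare. Below 50% lay 97 of 8085 and 69 of 3275 members in the OP-mESC libraries, 35 and 38 in YP-mESCs, 48 and 59 in OP-S33Y #2, 9 and 11 in OP-S33Y #1, at most 2 in each EB library and 0 of 12374 and 0 of 12600 in mESC shβcat #1. Of the 2678 members readable everywhere, 944 (35.3%) were at 80% or more in each of the 14 libraries, 76 (2.84%) were under 50% in at least 1, and 0 were under 50% in all.

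The comparison of old with young passage asks whether prolonged culture lowers methylation. Members fell in OP-mESCs, broadly and by a small amount. In 2780 testable members the 2 OP-mESC libraries had median levels of 80.8% each, and the YP-mESC libraries 86.1% and 86.3%, so that the groups did not overlap. The median difference was -4.70 points (quartiles -8.54 and -1.49), and 83.5% of the members were lower. An exact permutation test of the library medians gave a two-sided p of 0.333, the smallest that 2 libraries against 2 allow. In 1550 members (55.8%) both OP-mESC libraries lay under both YP-mESC libraries, and the same held for 39.0% of all windows tested. At an adjusted p under 0.05 (quasi-binomial F test with limma's moderated overdispersion, Benjamini-Hochberg over all windows), 352 members (12.7%) fell by more than 10 points and 24 rose, against 9.17% and 0.318% of all 19828 windows. By more than 25 points 19 (0.683%) fell and 2 (0.0719%) rose, against 1.66% and 0.0454% of all windows. Of the 2780 members 347 had the room to rise by that much, against 16958 of the 19828 windows. All 2780 members had over 25% in YP-mESCs and so the room to fall by it, but 5177 of the 19828 windows did. The shares of all windows thus include many windows too low to fall so far. The count of 19 was 30 of 2943 without OP-mESC replicate 1 and 54 of 6039 without OP-mESC replicate 2. The count of 2 was 7 and 4 without OP-mESC replicates 1 and 2, and 5 and 4 without YP-mESC replicates 1 and 2. limma on transformed levels made 10 and 1 of these calls. By more than 10 points it called 28 members lower, against the 352 above.

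**Figure D2:**
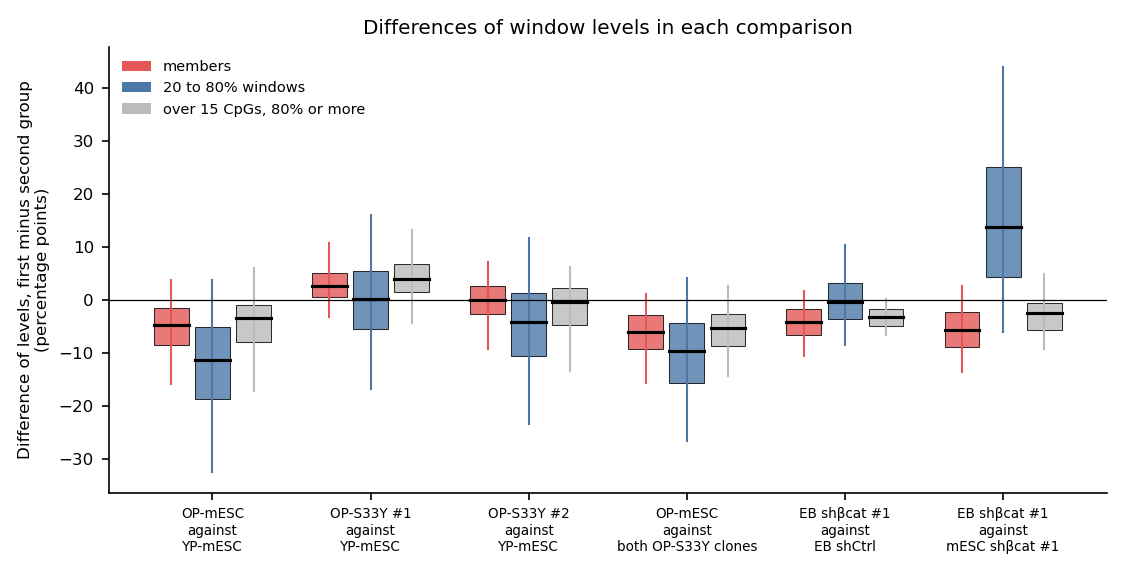
Differences of window levels (percentage points, first group minus second) in the 6 comparisons, for members (red), windows of 5 to 15 CpGs at 20 to 80% in mESC shCtrl (blue) and windows of over 15 CpGs at 80% or more (grey). Boxes are quartiles with the median, lines the 5th to 95th percentile. Members lie at a median of -4.70 points in OP-mESCs against YP-mESCs and -4.11 in EB shβcat #1 against EB shCtrl.

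Windows of intermediate level had a larger fall. The 1676 testable windows with 5 to 15 CpGs and 20 to 80% in the mESC shCtrl libraries differed by a median of -11.3 points. Of them 765 (45.6%) fell by more than 10 points and 216 (12.9%) by more than 25. The gap between the library medians of members and of these windows grew from 37.2 ± 0.233 points (SD, n = 2) in YP-mESCs to 47.5 ± 0.0966 (SD, n = 2) in OP-mESCs (exact permutation test, two-sided p = 0.333, the smallest possible). Among 104 methylated windows with more than 15 CpGs the median difference was -3.44 points. Within the members the difference followed the control level. It was -7.86 points in members at 80 to 85% in mESC shCtrl, -6.37 at 85 to 90%, -4.18 at 90 to 95% and -2.79 at 95% or more, with 29.8%, 17.3%, 8.33% and 4.53% of them falling by more than 10 points. By annotation the medians were -4.13 in intergenic windows, -5.06 in introns, -4.86 in coding exons and -5.32 in the 68 UTR windows. The medians of the 18 autosomes with testable members ran from -5.92 to -3.31 points.

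**Figure D3:**
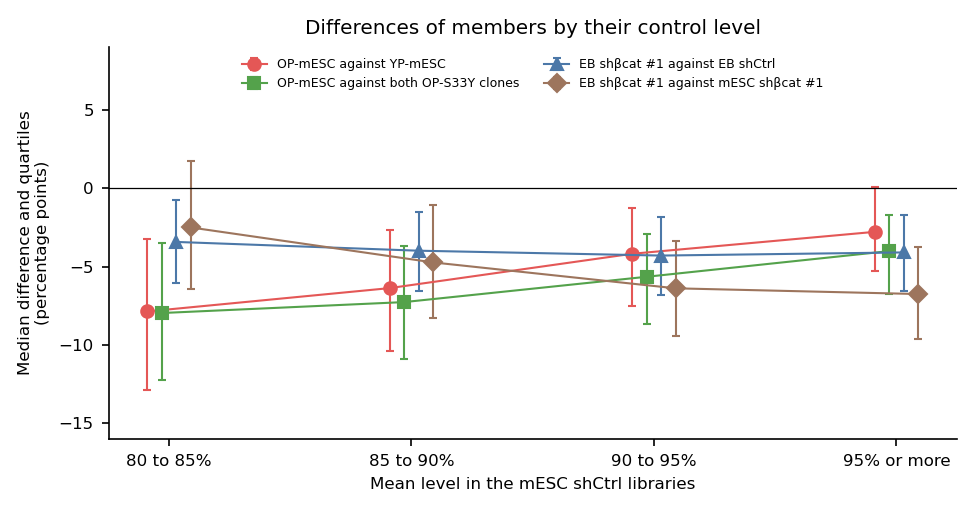
Median difference of members (percentage points, with quartiles as bars) by their mean level in the mESC shCtrl libraries (x axis), for 4 comparisons. In OP-mESCs against YP-mESCs the median goes from -7.86 points at 80 to 85% to -2.79 at 95% or more, and in EB shβcat #1 against mESC shβcat #1 from -2.51 to -6.75.

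The size of the fall differed with the bases beside a CpG. Over the CpGs of members that all 4 libraries covered, those inside CCGG, the site of the enzyme commonly used in RRBS, went from 82.0% in YP-mESCs to 75.6% in OP-mESCs (12437 CpGs, a difference of -6.43 points), and the 14611 others from 85.3% to 80.7% (-4.60). Counting both strands as one, CpGs in TCGA (-6.83 points, 656 CpGs), ACGA (-6.37, 1430) and ACGT (-6.34, 754) were near those in CCGG, and CpGs in GCGC (-2.925, 1151) and CCGC (-2.62, 2847) had the smallest differences. In EB shβcat #1 against EB shCtrl the differences of these contexts lay between -3.94 (CCGG) and -4.97 points (GCGA). These are means over CpGs of the same libraries and carry no test.

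Single members had much larger falls in OP-mESCs. The window near Dclk3, a doublecortin-like kinase gene (chromosome 9, 111425000 to 111425999), had 89.1% and 87.3% in mESC shCtrl, 39.95% and 52.4% in YP-mESCs, and 5.84% and 6.0% in OP-mESCs. It was also low in both clones, OP-S33Y #1 having 8.55% and 9.01% and OP-S33Y #2 having 5.64% and 6.54%, and 82.0% to 93.9% in the knockdown and EB libraries that covered it. OP-mESCs minus YP-mESCs gave -40.3 points (adjusted p = 1.34e-05). All 5 of its CpGs shown above were low in OP-mESCs, at 4.55%, 19.5%, 4.55%, 0.962% and 0% in that order, against 41.9% to 51.3% in YP-mESCs.

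The window near Lyz2, the lysozyme gene of myeloid cells (chromosome 10, 116712000 to 116712999), had 75.2% and 75.8% in YP-mESCs and 45.5% and 27.6% in OP-mESCs, a difference of -40.1 points over the 5 shared CpGs (adjusted p = 1.49e-05). It was 83.5% and 80.1% in OP-S33Y #1 but 39.4% and 26.9% in OP-S33Y #2, while the mESC shCtrl, mESC shβcat #1 and EB libraries had 87.0% to 96.9%. The OP-mESC replicates differed from each other by more than the YP-mESC replicates did, and the groups did not overlap. limma on transformed levels did not call it.

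The other 3 of the 5 largest called losses were of like size. A window near Ccdc112, a coiled-coil protein gene, had 64.1% and 59.4% in YP-mESCs and 23.5% and 15.5% in OP-mESCs (difference -44.5 points, adjusted p = 3.35e-07). A window at the start of Pramel1, a gene of the PRAME family (chromosome 4, 142984000 to 142984999), went from 79.4% and 76.2% to 45.3% and 35.4%. A window near Bdkrb2, the bradykinin B2 receptor gene (chromosome 12, 106795000 to 106795999), went from 84.8% and 86.9% to 47.1% and 53.8%. In none of these 5 windows did the EB or knockdown libraries fall under 66.6%.

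Of the 2 members that rose, the first was the window near Usp46, a deubiquitinase gene (chromosome 5, 74383000 to 74383999). It had 33.3% and 26.8% in YP-mESCs, 86.6% and 86.1% in OP-mESCs, and at least 64.1% in all 12 other libraries. The difference was 56.4 points (adjusted p = 2.70e-08), and each of its 7 CpGs was at 24.9% to 42.0% in YP-mESCs and at 79.3% to 93.0% in OP-mESCs. The second lay in an intron of Sgcd, the δ-sarcoglycan gene (chromosome 11, 47242000 to 47242999), with 40.7% and 50% in YP-mESCs and 72.0% and 70.4% in OP-mESCs (difference 25.8 points, adjusted p = 0.00689), a call lost without YP-mESC replicate 1, where the difference was 21.2 points, and not made by limma on transformed levels. Both windows were high in the mESC shCtrl libraries by the rule.

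**Figure D4:**
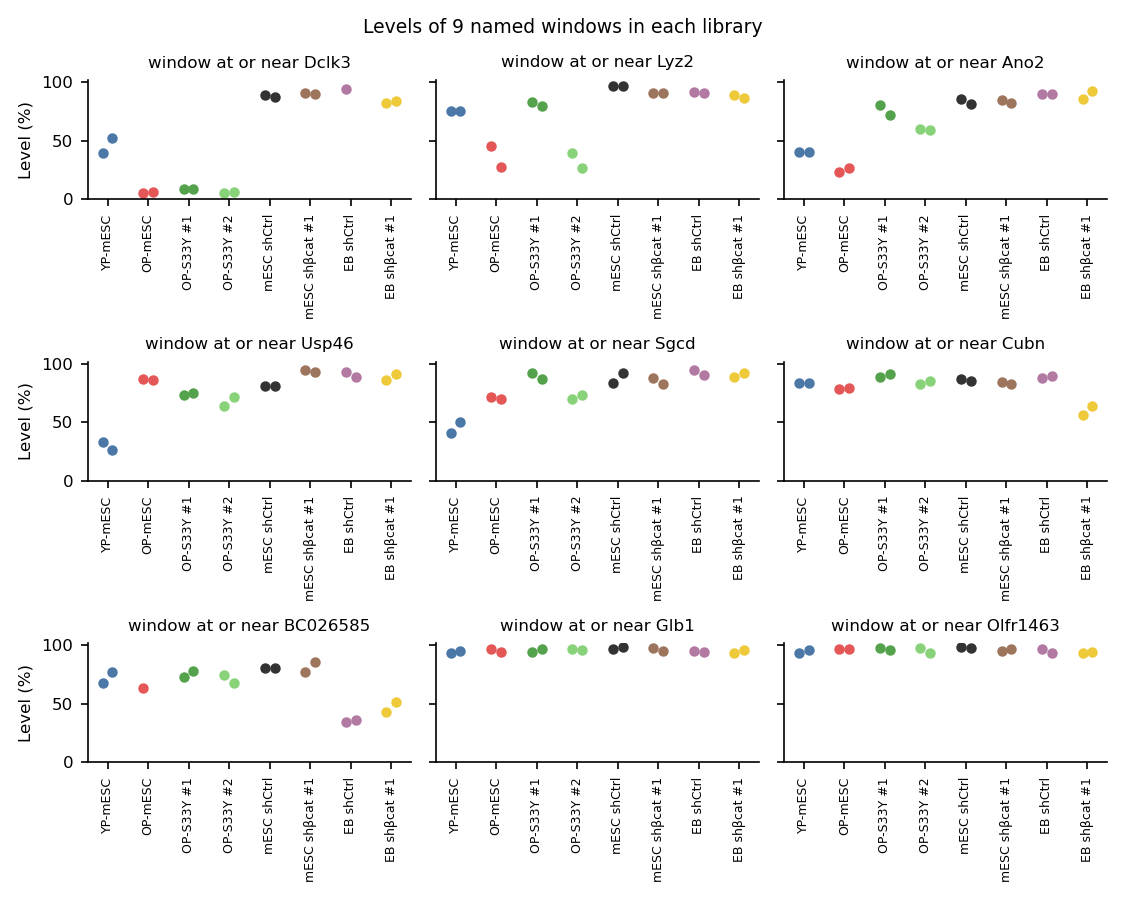
Methylation level (percent, y axis) of 9 named windows in the 2 libraries of each of the 8 groups (x axis), each point 1 library with 5 or more CpGs. The Dclk3 window is under 10% in OP-mESCs and both clones, the Usp46 window is low in YP-mESCs alone, the Cubn window in EB shβcat #1, and the Glb1 and Olfr1463 windows are above 93% throughout.

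The clones ask whether stabilized β-catenin changes the level kept in long culture, and both were set against the same YP-mESC libraries. In OP-S33Y #1 6155 members could be tested, and the 2 libraries had medians of 89.2% each against 86.1% and 86.2%, a median difference of 2.71 points with 20.5% of members lower. There 233 members (3.79%) rose by more than 10 points and 16 (0.26%) fell, against 2.12% and 1.89% of all windows. By more than 25 points 28 (0.455%) rose and 1 (0.0162%) fell, against 0.356% and 0.161%. Of the members 660 had the room to rise so far and 6155 to fall, against 23216 and 11152 of all 29777 windows. In OP-S33Y #2 the libraries had medians of 85.8% and 86.4% against 86.0% and 86.1%, with a median difference of 0.10 points over 6384 members, and the groups overlapped. There 179 members (2.80%) fell by more than 10 points and 90 (1.41%) rose, against 4.46% and 1.12% of all windows. By more than 25 points 16 (0.251%) fell and 8 (0.125%) rose, against 0.688% and 0.168%. Here 6384 members had the room to fall so far and 693 to rise, against 11551 and 23603 of all 30393 windows. An exact permutation test over the libraries gave p = 0.333 for OP-S33Y #1, the smallest possible, and p = 1 for OP-S33Y #2. limma on transformed levels called 0 by more than 25 points in either clone and 0 lower by more than 10 points. In the quasi-binomial test 1283 and 963 members had an unadjusted p under 0.05. Without YP-mESC replicate 2 the members that rose numbered 43 in OP-S33Y #1 and 13 in OP-S33Y #2, and the 1 that fell in OP-S33Y #1 became 3 without OP-S33Y #1 replicate 2 and 2 without YP-mESC replicate 2.

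In both clones the Usp46 window was higher than in YP-mESCs, with 73.3% and 74.7% in OP-S33Y #1 (adjusted p = 2.43e-05) and 64.1% and 71.6% in OP-S33Y #2 (adjusted p = 5.18e-06). The Sgcd window rose to 91.8% and 86.7% in OP-S33Y #1, and had 70.0% and 73.3% in OP-S33Y #2. The window in an intron of Ano2, a calcium-activated chloride channel gene (chromosome 6, 125974000 to 125974999), had 40.8% and 40.3% in YP-mESCs and 80.6% and 71.9% in OP-S33Y #1, a difference of 35.7 points (adjusted p = 0.00189). The other windows that rose most in OP-S33Y #1 lay near Olfr596, an olfactory receptor gene, where the level went from 57.5% and 65.6% to 98.3% and 95.8%, and near Gm9797, where it went from 50.04% and 41.4% to 77.8% and 82.6%. The Olfr596 window had 60 to 120 reads in the YP-mESC, OP-mESC and clone libraries and 964 to 2346 in the others.

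Losses of OP-S33Y #2 were led by the Lyz2 and Dclk3 windows, with differences of -42.4 and -40.1 points from YP-mESCs (adjusted p = 4.19e-07 and 9.85e-07). A window with a coding exon of Hcn2, a pacemaker channel gene (chromosome 10, 79197000 to 79197999), had 28.0% and 22.4% in OP-S33Y #2, 64.9% and 53.3% in YP-mESCs, and 79.4% and 72.6% in OP-mESCs. Windows at Gm17399 and at 1700018B08Rik had differences of -36.4 and -35.8 points. The windows that rose most besides Usp46 lay near Nr4a2, an orphan nuclear receptor gene (35% and 31.5% in YP-mESCs, 69.8% and 79.6% in OP-S33Y #2), near Pkia, near Rabl2 and in an intron of Ehbp1, with differences of 28.3 to 39.5 points. The Nr4a2 call was lost without OP-S33Y #2 replicate 2, and the Pkia difference was 24.1 points without YP-mESC replicate 1.

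Set against both clones together, OP-mESCs were lower in 91.7% of 2894 members, by a median of -6.04 points (quartiles -9.24 and -2.86). The OP-mESC libraries had medians of 80.9% each, and the 4 clone libraries 86.0% to 89.4%, an order with an exact permutation p of 0.0667, the smallest that 2 against 4 allow. By more than 10 points 427 members (14.8%) fell and 2 rose, against 6.52% and 0.142% of all 20399 windows. By more than 25 points 28 (0.968%) fell, against 0.956% of all windows. Of the 2894 members 2893 had the room to fall so far, but only 5167 of the 20399 windows did. The share of all windows thus includes many windows too low to fall so far. Among 1705 windows of intermediate level 112 (6.57%) fell by more than 25 points. In the quasi-binomial test 0 members rose by more than 25 points, against 0.0245% of all windows. Of the members 0 did so at an unadjusted p under 0.05 and 0 by limma on transformed levels. Members called lower by limma numbered 265 by more than 10 points and 25 by more than 25. Leaving out OP-S33Y #1 replicate 1 or OP-mESC replicate 1 made 2 and 1 rise. The libraries come from 2 separate clones, so these 4 libraries are not 4 replicates of a condition.

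The largest of these differences was at Eml2, a microtubule-associated protein gene (chromosome 7, 19761000 to 19761999), in a window 270 bases from a transcription start, with 7.80% and 6.31% in OP-mESCs, 63.2% and 65.5% in the first clone, 58.4% and 55.2% in the second and 31.5% and 35.9% in YP-mESCs. Its difference from the clones was -52.1 points (adjusted p = 7.06e-06). The Ano2 window had 23.2% and 26.8% in OP-mESCs against 60.4% and 59.2% in OP-S33Y #2, and its level in YP-mESCs, given above, lay between OP-mESCs and the clones. A window in Palm2, a paralemmin gene, had 42.0% and 24.5% in OP-mESCs and 73.3% to 77.1% in the clones. A window 105343 bases from Oxgr1, its nearest protein-coding gene, had 35.4% and 53.1% in OP-mESCs. It had 84.0% to 92.8% in the clones and 80.9% and 76.9% in YP-mESCs. The Dclk3 window, in contrast, was under 10% in the clones and in OP-mESCs, and the Lyz2 window was low in OP-S33Y #2.

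In EBs the question is what β-catenin knockdown does to methylation on differentiation. Members were lower in EB shβcat #1 than in EB shCtrl, by little and nearly everywhere. Over 9439 members the libraries had medians of 87.4% and 87.0% against 91.6% and 91.4%, without overlap (exact permutation p = 0.333, the smallest possible). The median difference was -4.11 points (quartiles -6.65 and -1.65), and 87.98% of members were lower. In 5558 (58.9%) both EB shβcat #1 libraries lay under both EB shCtrl libraries, as in 25.4% of all 37870 windows. By more than 10 points 296 members (3.14%) fell and 5 rose, against 0.988% and 1.51% of all windows. By more than 25 points 1 fell, which is 0.0106% of members, and the share of all windows was 0.0106%. All 9439 members, but 19079 of all windows, had the room to fall so far. In this test 0 rose, against 0.0290%, with 0 at an unadjusted p under 0.05, while 31 members had the room to rise so far. limma on transformed levels called 0 lower at either threshold and 0 higher by more than 25 points. The 1 call became 4 without EB shβcat #1 replicate 1, 7 without its replicate 2 and 2 without EB shCtrl replicate 1.

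Windows of intermediate level changed little here. The 5053 windows at 20 to 80% in mESC shCtrl differed by a median of -0.30 points, with 52.4% lower, and 30 of them fell and 77 rose by more than 10 points. The gap between the library medians of members and of these windows narrowed from 12.3 ± 0.238 points (SD, n = 2) in EB shCtrl to 8.88 ± 0.197 (SD, n = 2) in EB shβcat #1 (exact permutation p = 0.333, the smallest possible). The 168 methylated windows of more than 15 CpGs differed by a median of -3.21 points, with 93.5% lower. Among members the median was -4.95 points in intergenic windows, -3.89 in introns, -3.42 in coding exons and -3.47 in UTRs, and -4.98 with up to 15 CpGs per kb of reference against -3.38 with over 30. By control level the medians lay between -3.43 and -4.30 in the 4 classes. Chromosome medians ran from -3.72 to -4.71 points.

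The single member called at more than 25 points lay at the start of Cubn, which encodes cubilin, an endocytic receptor (chromosome 2, 13413000 to 13413999, a window with UTR 51 bases from the transcription start). It had 56.0% and 64.1% in EB shβcat #1, 88.03% and 89.3% in EB shCtrl, 84.3% and 82.8% in mESC shβcat #1, and 78.6% to 91.0% in the YP-mESC, OP-mESC and clone libraries. The difference was -29.5 points over 5 shared CpGs (adjusted p = 0.00445), and limma on transformed levels did not call it.

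The differences of OP-mESCs from YP-mESCs and of EB shβcat #1 from EB shCtrl, which share no library, were set side by side. Over 2676 members they had a Pearson correlation of -0.018 and a Spearman correlation of -0.025, given as a description over windows of the same 8 libraries. A fall of more than 10 points was seen in 493 members in OP-mESCs and in 133 in EB shβcat #1, which are 18.4% and 4.97% of these members. Both lists held 18 members, 3.65% of the first list and 13.5% of the second.

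Compared with the undifferentiated cells of the same hairpin, EB shβcat #1 had lower members and higher windows of intermediate level. Both sets were chosen by their levels in mESC shCtrl, from which members in mESC shβcat #1 differed by a median of 1.44 points. The choice may therefore partly set these directions and the order by control level, and its share was not tested. Over 9906 members the library medians were 87.4% and 86.9% in EB shβcat #1 and 93.0% and 93.1% in mESC shβcat #1 (exact permutation p = 0.333, the smallest possible), with a median difference of -5.66 points. By more than 10 points 1787 members (18.04%) fell and 24 (0.242%) rose, against 5.15% and 20.5% of all 39155 windows. By more than 25 points 5 (0.0505%) fell and 0 rose, against 0.0204% and 7.85%. Only 10 members had the room to rise so far, against 25952 of all windows. By limma on transformed levels or at an unadjusted p under 0.05, 0 members had risen. All 9906 members, but 17900 of all windows, had the room to fall so far. Members called lower by limma numbered 1665 by more than 10 points and 5 by more than 25. The count of 5 became 19 without EB shβcat #1 replicate 1 and 24 without its replicate 2, and 1 member rose without EB shβcat #1 replicate 1 or without mESC shβcat #1 replicate 2. Windows at 20 to 80% in mESC shCtrl differed by a median of 13.7 points, and 1349 of 5311 rose by more than 25. By control level the medians of members went from -2.51 points at 80 to 85% to -6.75 at 95% or more. They were -7.23 points in intergenic windows and -3.94 in coding exons, with 25.2% and 11.7% called lower by more than 10 points, and -7.21 beyond 50 kb from a transcription start and -3.67 within 2 kb.

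The 5 members called lower lay near BC026585, at BC066135, and near Tor1aip2, Gatsl2 and Pitx1. Gatsl2 lay 379582 bases and Pitx1, a homeobox gene, 60447 bases from its window. The BC026585 window (chromosome 1, 159380000 to 159380999) had 77.3% and 86.1% in mESC shβcat #1, 42.7% and 51.6% in EB shβcat #1, and 34.7% and 36.4% in EB shCtrl (difference -36.7 points, adjusted p = 3.16e-06). The BC066135 window (chromosome 2, 180024000 to 180024999) had 90.8% and 87.7%, then 55.5% and 55.1%, and 63.6% and 70.4% in EB shCtrl. It was also low in YP-mESCs, with 46.2% and 40.3%, and in the clones, with 39.5% to 55.3%. The Tor1aip2, Gatsl2 and Pitx1 windows fell by 25.6 to 26.6 points, and each of these 3 calls was lost without EB shβcat #1 replicate 2. The Tor1aip2 window was also low in EB shCtrl, with 63.0% and 56.2%.

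Against the mESC shCtrl libraries that chose the members, values are given without a test. In mESC shβcat #1 the members differed by a median of 1.44 points (12164 members, 26.7% of them lower), 16 fell by more than 10 points and 0 by more than 25. In EB shCtrl the median difference was -0.06 points over 11011 members, with 69 falling by more than 10 points, while windows at 20 to 80% differed by a median of 18.2 points. In YP-mESCs members differed by a median of -4.95 points over 7155 members, and 141 fell by more than 25 points. Choosing members by a high value in mESC shCtrl partly fixes the direction of these differences.

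Some members hardly varied. By the highest minimum over the 14 libraries they lay near Olfr1463, an olfactory receptor gene (93.5% to 97.9%), in a coding exon of Glb1, the lysosomal β-galactosidase (93.1% to 98.0%), in introns of Suclg2, a succinyl-CoA ligase subunit (91.7% to 99.0%), and Tmcc3 (91.4% to 98.2%), and near Atp11b (91.4% to 97.7%). In the Olfr1463 sequence all 10 CpGs were at 90% or more in OP-mESCs. The 5 members with the lowest mean were an intronic window of Ehbp1 (mean 55.4%), the Eml2 window (55.6%), a window near Sox14 (56.9%), a window near H2-M10.4 (59.5%) and the BC066135 window (59.5%). The Ehbp1 window had 38.2% to 52.8% in the YP-mESC, OP-S33Y #1 and EB libraries and 59.9% to 79.95% in the OP-mESC, OP-S33Y #2 and mESC shβcat #1 libraries. The Sox14 window, near a gene of the SOX family, had 35.1% to 49.3% in the YP-mESC, OP-mESC and clone libraries and 74.1% to 87.5% in the knockdown and EB libraries, and the H2-M10.4 window had 24.002% to 55.4% and 84.4% to 94.3% in these sets. The knockdown and EB libraries come from cells with hairpins, as do the mESC shCtrl libraries that chose the members. In them 78.5% to 98.7% of members were readable, against 25.2% to 79.4% in the YP-mESC, OP-mESC and clone libraries. What sets these libraries apart was not tested. The named windows were ordered by the values given and carry no test.

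Members in or within 2 kb of genes of 6 lists (Wnt pathway, DNA methylation machinery, germline, imprinted, lineage and pluripotency genes) numbered 127 windows of 73 genes, and the shares of all windows called are those given above. The windows named are the calls, chosen after their values were seen. In OP-mESCs against YP-mESCs 34 of 36 testable windows were lower, by a median of -4.46 points, and 2 fell by more than 10 points in the quasi-binomial test and 0 by limma. They were a coding exon of Dvl2, a transducer of Wnt signals (73.2% and 79.7% in YP-mESCs, 65.5% and 65.1% in OP-mESCs), and an intron of Hnf4a, a hepatic transcription factor gene (81.6% and 85.5%, then 68.2% and 70.5%). In OP-S33Y #1 5 of 62 rose by more than 10 points, and 0 did so by limma. Among them were a window near Wnt2 (38.2% and 30.8% in YP-mESCs, 70.2% and 68.5% in OP-S33Y #1), an intron of Wnt7b (63.1% and 52.1%, then 82.6% and 87.3%), and an intron of Gata4, an endoderm and heart transcription factor gene (42.6% and 52.8%, then 81.9% and 81.3%). The remaining 2 were coding exons of Apc2 and Wif1. In OP-S33Y #2 4 of 67 fell by more than 10 points, at Ehmt2, Tuba3a, Peg10 and Trappc9, and 1, in Wnt7b, rose, against 0 and 0 by limma. OP-mESCs were lower than both clones in 35 of 36 by a median of -6.45 points, and 6 fell by more than 10 points (2 by limma), at Lef1, Wnt7a, Wif1, 2 windows of Hnf4a and the Gata4 window, which had 53.9% and 27.1% in OP-mESCs and 50.6% to 81.9% in the clones, so that the groups overlapped.

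Peg10, an imprinted gene derived from a retrotransposon, had 87.8% and 91.1% in YP-mESCs and 74.9% and 62.8% in OP-S33Y #2 in a member with a coding exon (adjusted p = 0.000224), and 51.0% in the OP-mESC library that covered it. In EB shβcat #1 against EB shCtrl 82 of 92 list windows were lower by a median of -2.92 points, but 0 passed at 10 points in the quasi-binomial test and 0 by limma, with 2 at an unadjusted p under 0.05. Against mESC shβcat #1 8 of 95 fell by more than 10 points (7 by limma), 5 of them in the Wnt list, at 2 windows of Lef1, a Wnt effector, and at Rspo1, Wnt7a and Dkk3. The others were in Syce1 and Mov10l1 of the germline list and in Kcnq1 of the imprinted list. Genes of the methylation machinery had 16 member windows in 10 genes. A coding exon of Dnmt1, the maintenance methyltransferase, had 93.5% and 92.1% in mESC shCtrl, 83.9% in YP-mESC replicate 2 and 94.5% to 96.6% in the EB shβcat #1 libraries, and one of Tet3 had 90.01% to 97.9% in all 14 libraries. An intron of Dnmt1 had 85.3% and 83.8% in YP-mESCs, 78.8% in the OP-mESC library that covered it, 82.4% and 84.4% in OP-S33Y #1, 78.9% and 75.96% in OP-S33Y #2 and 90.05% to 95.9% in the EBs. An intron of Kdm2b, an H3K36 demethylase gene, had 84.2% and 83.6% in YP-mESCs, 77.01% and 79.4% in OP-mESCs and 75.2% and 76.03% in OP-S33Y #2. Between OP-mESCs and YP-mESCs all 5 testable machinery windows were lower in the former, by a median of -4.998 points, and 0 passed at 10 points in the quasi-binomial test, by limma or at an unadjusted p under 0.05. Pluripotency genes had 2 members, in Prdm14 and Fgf5.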

How the data were processed

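RRBS libraries of 8 groups with 2 replicates each were analysed. Per the labels and the study's methods, the authors trimmed reads with CASAVA 1.8.2 and Trim Galore 0.2.8 and aligned them to mm9 with Bismark 0.7.9. The deposited files give, per cytosine and strand, the read count (10 or more) and the percent of reads called methylated; the handling of duplicate reads is not given in the sources used here. Strands were summed per CpG and CpGs binned into 1 kb windows. Reads summed over the CpGs covered in every library compared (5 or more) were tested per window by a quasi-binomial F test with overdispersion moderated by limma 3.58.1 in R 4.3.3, with Benjamini-Hochberg adjustment over all windows. Calls needed both an adjusted p below 0.05 and replicate means more than 25 (or 10) points apart. Neighbouring CpGs share reads and reads carry no molecular identifiers, so read numbers overstate the independent molecules. The p-values measure a spread between these libraries that is mostly borrowed from other windows, so a window's own replicate spread counted little. The borrowed part had 11.0 (EB shβcat #1 against mESC shβcat #1) to 23.3 (OP-S33Y #2 against YP-mESC) degrees of freedom. Members and gene lists were chosen with earlier results of these data known. Named windows were taken from, per comparison and direction, the 5 called members with the largest difference, the 5 with the highest minimum and the 5 with the lowest mean over 14 libraries, up to 4 per gene list and 2 on each side of the threshold. Alternatives covered reads per CpG, shared CpGs, shared overdispersion, limma on arcsine square root levels, a replicate block, a coverage cap, members at 90% or more and each replicate left out. On simulated data for OP-mESC against YP-mESC (19828 windows), 34 of 100 windows lowered by 15 points and 98 of 100 lowered by 35 points were recovered. Windows lowered by 15 points counted at an adjusted p below 0.05 with any fall, and those lowered by 35 points also needed a fall of more than 25. The lowered windows were not limited to members.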

Additional observations from a re-analysis of the deposited data

Results flagged for a closer look

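In 3 named windows every OP-S33Y #1 library lay above and every OP-S33Y #2 library below both YP-mESC libraries. The clones' differences from YP-mESCs were 14.3 points apart in the Ccdc112 window, 48.6 points in the Lyz2 window and 55.8 points in the Hcn2 window. The difference between the clones was not tested, and each clone is 1 clone.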

How the results depend on the processing

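Of 50 alternative medians 48 kept their direction, the exceptions being OP-S33Y #2 against YP-mESC, and of 366 alternatives for single windows 337 kept direction and call, 29 lost the call and 0 reversed. With at least 20 reads per CpG, fewer members could be tested. OP-mESC against YP-mESC had 2 lower and 0 higher of 676. OP-S33Y #1 had 0 lower and 13 higher of 2595, with a median of 2.588 points, and OP-S33Y #2 had 6 lower and 1 higher of 2411. OP-mESC against the clones had 5 lower of 676, and EB shβcat #1 against mESC shβcat #1 had 2 lower of 4909 with a median of -5.322. limma on arcsine square root levels called 10 lower and 1 higher in OP-mESC against YP-mESC, 0 and 0 in each clone and 0 lower in EB shβcat #1 against EB shCtrl; the cause was not tested. Among members at 90% or more, OP-mESC against YP-mESC had 6 lower, 0 higher and a median of -3.475, OP-S33Y #1 had 0 lower and 5 higher, OP-S33Y #2 had 7 lower, 0 higher and a median of 0.6238, OP-mESC against the clones had 4 lower, EB shβcat #1 had 0 lower against EB shCtrl and 2 lower with a median of -6.56 against mESC shβcat #1. With all CpGs of each library, 1 member was higher in EB shβcat #1 against mESC shβcat #1. At more than 10 points the lower and higher calls of the quasi-binomial test were 352 and 24, 16 and 233, 179 and 90, 427 and 2, 296 and 5, and 1787 and 24, in the order of the report. By limma the lower calls at that size were 28, 0, 0, 265, 0 and 1665. Leaving out 1 library gave, in OP-mESC against YP-mESC, 26 to 54 lower, 4 to 7 higher and medians of -4.848 to -4.604; in OP-S33Y #1, 1 to 3 lower, 33 to 43 higher and 2.551 to 2.752; in OP-S33Y #2, 6 to 13 higher; in OP-mESC against the clones, 0 to 2 higher; in EB shβcat #1 against EB shCtrl, 1 to 7 lower and -4.253 to -3.756; and against mESC shβcat #1, 5 to 24 lower, 0 to 1 higher and -5.836 to -5.265. A lone library is there assumed to vary like the other group. Deviations of same-numbered libraries correlated between -0.089 and 0.061 over 7 pairs of groups. Such deviations hold much sampling noise, so they cannot decide whether replicates were paired. With a replicate block the shared overdispersion of EB shβcat #1 against EB shCtrl was 1.64, against 2.39 without it, and it was slightly higher in the other comparisons. With the replicate block 1 member was higher in OP-mESC against YP-mESC, the Sgcd call being lost, and the other counts stayed close to those reported. Of 13021 members, 10343 had under 5 CpGs in at least 1 of the 14 other libraries.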
